A study of Canis lupus familiaris with 20 samples.

Results

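CXCL8 and CXCL10 are small secreted proteins of the CXC chemokine family, and they were followed here through every array probe whose RefSeq accession matched either symbol: 4 probes of CXCL8 (A_11_P0000019918, A_11_P054906, A_11_P053416 and A_11_P053586) and 2 probes of CXCL10 (A_11_P058961 and A_11_P0000020166), that is 6 of the 43603 probes on the array. CXCL8 (interleukin 8) draws neutrophils through the receptors CXCR1 and CXCR2, and its gene is switched on by NF-kB and AP-1 after Toll-like receptor, interleukin 1 or TNF signals. CXCL10 draws activated T cells and NK cells through CXCR3, and its gene responds to interferons as well as to NF-kB. Both can be made by macrophages and by tumour cells, which makes the pair a way to set an NF-kB-linked chemokine beside an interferon-linked one in the same cells.

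The tumour cells were 5 canine mammary lines, of which CMT-U27 came from a simple carcinoma, CMT-U309 from a spindle-cell tumour, P114 from an anaplastic cancer, and both CMT-W1 and CMT-W2 from adenocarcinomas. Each line was grown for at least 72 h either alone (mono-culture) or beneath macrophages derived from CD64-positive blood monocytes of healthy dogs (co-culture), after its cells had been marked with the fluorescent dye CMTMR. The co-cultures were then sorted into dye-marked cancer cells and unmarked macrophages, and macrophages grown alone were the control of the second population. Per the study's methods, co-cultured cells were trypsinised and sorted before RNA isolation, whereas mono-cultures were washed and scraped. An effect of co-culture and an effect of this handling cannot be told apart in the ratios. Each of the 10 sorted populations (5 of cancer cells, 5 of macrophages) was hybridised on 2 arrays with the dyes exchanged, 20 arrays in all, against its own mono-culture, and the average of the pair was taken as 1 replicate, so n = 5 co-cultures per cell type. The study's methods describe the pair as a dye swap, whereas the labels number its arrays as biological replicates. Differences within a pair may therefore hold spread between cultures as well as between dyes. Each line is a single line, and the number of blood donors and of separate macrophage mono-cultures is not given in the sources used here, so the p-values measure the spread between these co-cultures. Values are log2 ratios of co-culture over mono-culture, on which 1 unit is a 2-fold difference, and a positive value means a higher signal in co-culture.

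The sorted populations were checked against marker genes before the chemokines were read. Of 20 macrophage markers named, 12 were matched on the array. Their summed signal in co-cultured cancer cells, as a share of its mean in mono-cultured macrophages, ran from 2.49% (CMT-W1) over 4.69% (P114), 12.2% (CMT-W2) and 14.1% (CMT-U309) to 69.5% (CMT-U27), where the lines grown alone had 0.447% to 3.46%. In co-cultured macrophages it was 8.28% with P114, 10.2% with CMT-W1, 12.3% with CMT-W2, 17.9% with CMT-U27 and 34.0% with CMT-U309. In the CMT-U27 co-culture the library labelled cancer cells thus carried more macrophage marker signal than the library labelled macrophages. In the CMT-W2 co-culture both libraries carried nearly the same (12.2% and 12.3%). Of 17 epithelial and mammary markers named, 5 were matched, and their sum was set against mono-cultured macrophages in the same way. It was 104% (CMT-W2) to 343% (CMT-W1) in the lines grown alone and 57.5% to 168% in co-cultured cancer cells. Co-cultured macrophages had 53.0% to 127%, so these 5 markers separated the populations poorly. With CMT-U27 the sum was 58.0% in the library labelled cancer cells and 127% in that labelled macrophages. Of the 12 markers, 11 rose in cancer cells and 11 fell in macrophages (limma, adjusted p under 0.05). The share of all probes called up in the former was 6.79%, and the share called down in the latter was 25.8%. CD163, a scavenger receptor of macrophages, was well above background on 4 of 10 mono-culture and 10 of 10 co-culture arrays of cancer cells, with log2 ratios of 5.89 ± 2.18 (SD, n = 5) in cancer cells and -5.45 ± 2.85 in macrophages. Of the 5 epithelial markers, 0 rose and 1 fell in cancer cells, where 6.8% of all probes were called down. In macrophages 20% rose and 20% fell, beside 21.9% and 25.8% of all probes. Without CMT-U27, 0 rose and 0 fell in cancer cells, and 1 rose and 0 fell in macrophages. The results on both chemokines and the counts over gene lists are therefore given with and without CMT-U27. Leaving it out does not remove the marker signal of the other lines. In bulk RNA a different number of cells of a type and a different amount of RNA per cell cannot be told apart. In co-culture, 51.0% to 96.3% of the probes exceeded background on the cancer cell arrays and 54.5% to 74.7% on those of macrophages, and no spot of CXCL8 or CXCL10 was saturated or marked as an outlier. Outlier marks over all probes were uneven, with a median of 20 spots per cancer cell array. When labelled with Cy5, co-cultured CMT-U309 cancer cells had 9870 such spots, on the array that also gave the 96.3%. Those of CMT-W2 had 1438 with that dye.

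In cancer cells, CXCL8 was raised in all 5 co-cultures by all 4 probes, with mean log2 ratios of 5.52 to 7.67. By the brightest probe, A_11_P0000019918, the log2 ratio was 8.47 in CMT-U27, 5.23 in CMT-U309, 7.24 in P114, 8.93 in CMT-W1 and 8.47 in CMT-W2. The lowest value was that of CMT-U309, which had the highest CXCL8 signal of the 5 lines when grown alone. The mean was 7.67 ± 1.50 (SD, n = 5, 203-fold, limma adjusted p = 0.000784), and no other of the 29701 probes tested in cancer cells had a higher mean ratio. All 4 CXCL8 probes passed, where 6.79% of the probes tested in cancer cells were called up and 6.8% down.

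The other 3 CXCL8 probes gave smaller ratios with the same sign in every line. A_11_P054906 had log2 ratios of 5.25 in CMT-U27, 4.33 in CMT-U309, 6.00 in P114, 5.37 in CMT-W1 and 7.06 in CMT-W2, a mean of 5.60 ± 1.01 (SD, n = 5, limma adjusted p = 0.000784). A_11_P053416 had 5.72, 4.10, 5.37, 6.01 and 6.40 in the same order of lines, a mean of 5.52 ± 0.88 (adjusted p = 0.000529). A_11_P053586 had 6.28, 4.58, 6.42, 7.64 and 8.13, a mean of 6.61 ± 1.38 (adjusted p = 0.000992). CMT-U309 was lowest by every probe, whereas the highest line was CMT-W1 by the brightest probe and CMT-W2 by the other 3. Within a line the 4 probes spanned 1.14 log2 units in CMT-U309 to 3.56 in CMT-W1, while the arrays of a dye-swap pair differed by 0.20 to 0.96, so the probes disagreed on the size of the change by more than the dye swap did. In CMT-W1 the mono-culture was not well above background on either array by A_11_P053586, which makes the difference there at least 173-fold, and by the brightest probe it was so on 1 of 2 arrays only. Without CMT-U27 the means were 5.47 to 7.47, and all 4 probes passed (limma adjusted p of 0.00363 to 0.00492). By the methods' t-test, which sets the levels of both cultures against each other unpaired, none of the 4 passed (adjusted p of 0.0826 to 0.117).

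**Figure D1:**
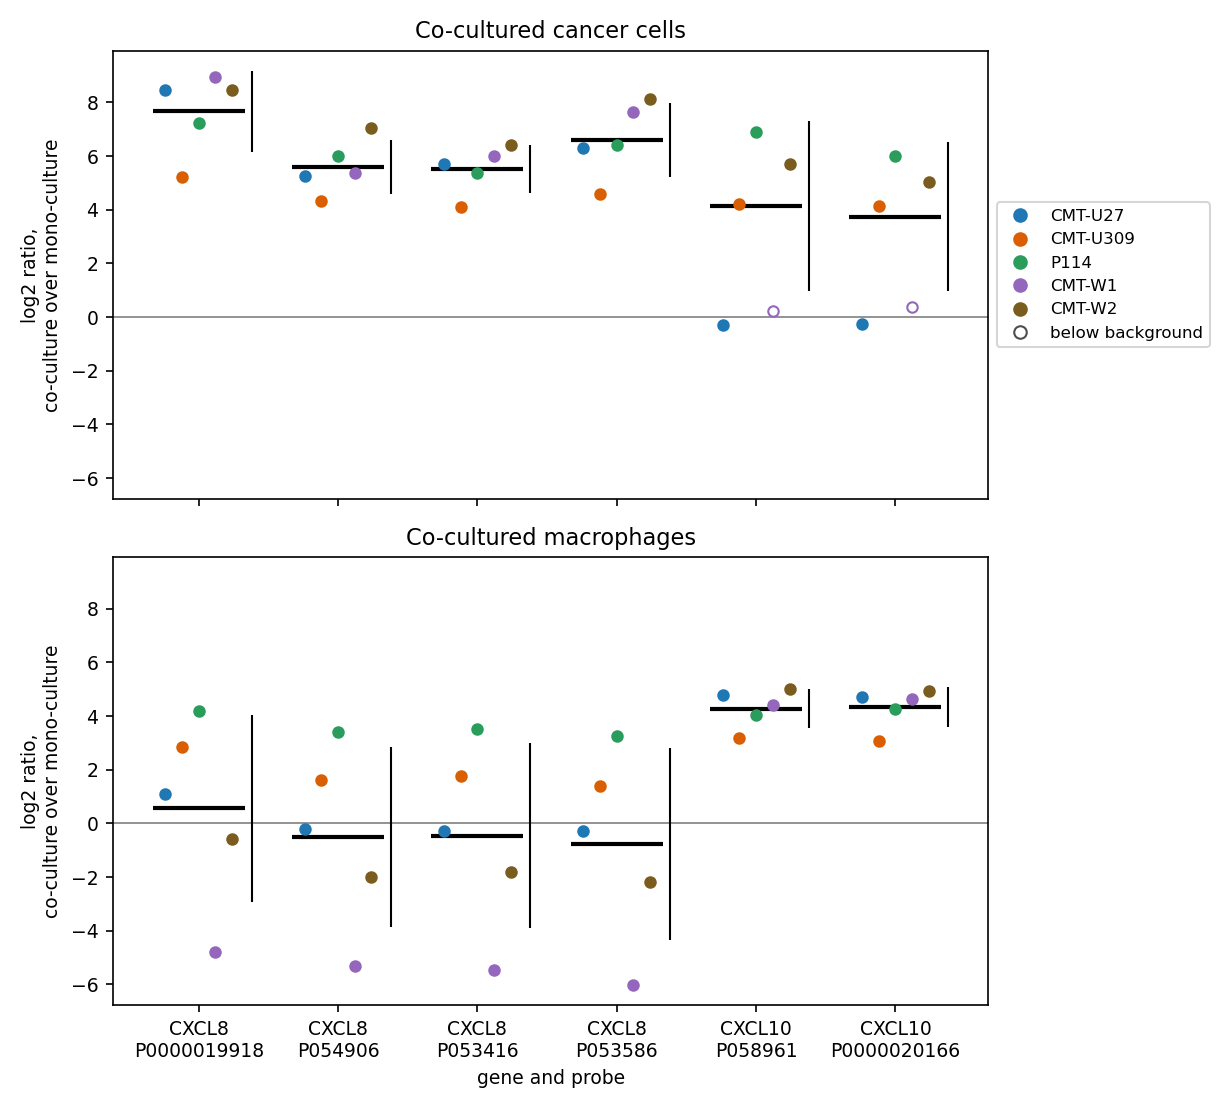
Log2 ratio (co-culture to mono-culture, vertical axis) for the 6 probes of CXCL8 and CXCL10 (horizontal axis) in cancer cells and macrophages, with a point per co-culture, the mean as a bar and the SD as a vertical line. CXCL8 lies between 4.10 and 8.93 in all cancer cells and on both sides of 0 in macrophages, while CXCL10 lies between 3.06 and 5.00 in all macrophages and spreads from -0.30 to 6.91 in cancer cells, where open circles mark CMT-W1, which was below background.

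In macrophages the CXCL8 ratio went in both directions and differed between the co-cultures. Each line had a single co-culture, so the line cannot be told apart from that culture or its blood donors. By the brightest probe the log2 ratio was 1.10 with CMT-U27, 2.86 with CMT-U309, 4.18 with P114, -4.78 with CMT-W1 and -0.57 with CMT-W2. The signal was thus 18.2-fold higher with P114 and 27.5-fold lower with CMT-W1. The mean, 0.56 ± 3.48 (SD, n = 5), did not differ from 0 (limma adjusted p = 0.702, 95% interval -2.01 to 3.13). By the other 3 probes the means were -0.50 ± 3.36, -0.45 ± 3.45 and -0.77 ± 3.56 (adjusted p of 0.603 to 0.757), so the sign of the mean depended on the probe.

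The order of the co-cultures did not. Every CXCL8 probe ranked the macrophages as P114, CMT-U309, CMT-U27, CMT-W2 and CMT-W1 from highest to lowest ratio. A_11_P054906 had -0.22 with CMT-U27, 1.60 with CMT-U309, 3.41 with P114, -5.31 with CMT-W1 and -2.01 with CMT-W2. A_11_P053416 had -0.28, 1.76, 3.51, -5.46 and -1.79, and A_11_P053586 had -0.29, 1.41, 3.25, -6.02 and -2.20. The arrays of a pair differed by 0.01 to 1.09, less than each step between neighbours in that order by any of the 4 probes. Among the macrophages, those cultured with CMT-U27 were the only ones whose sign changed between probes. Without CMT-W1 the means became 0.55 to 1.89 (adjusted p of 0.0718 to 0.602), without CMT-U27 they were -0.89 to 0.42, and in neither case did a probe pass.

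The change in CXCL8 was lower in macrophages than in cancer cells by a test of the difference itself. The brightest probe differed by -7.11 (macrophages minus cancer cells, 95% interval -10.16 to -4.06, n = 5 and 5 in a limma fit across all probes, adjusted p = 0.00247), and the other probes by -6.11, -5.97 and -7.38 (adjusted p of 0.00206 to 0.00488). Without CMT-U27 the differences were -7.58 to -5.96 and all 4 probes passed (adjusted p of 0.0108 to 0.0240). With all co-cultures, too, all 4 passed, where 16% of 28664 probes were called as higher in cancer cells and 15.7% as higher in macrophages. The highest macrophage ratio lay below the lowest cancer cell ratio for each of the 4 probes (4.18 against 5.23 for the brightest), a pattern shown by 13.3% of the probes (11.6% had the opposite one). On the only slide that held both cell types, the macrophages from CMT-U27 and the cancer cells of CMT-W1 differed by -7.92 to -5.59 over the 4 probes. With the slide as a fixed block the differences were -7.92 to -5.59 and none passed (limma adjusted p of 0.326 to 0.464), since 4 of the 5 slides held a single cell type.

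The signal levels showed from where each population had started. For the brightest CXCL8 probe the log2 signal of mono-cultured cancer cells was 10.46 in CMT-U27, 13.43 in CMT-U309, 11.93 in P114, 7.72 in CMT-W1 and 11.12 in CMT-W2. The cancer cells of the co-cultures had 18.93, 18.66, 19.16, 16.65 and 19.59, so the lowest of them stood above the highest mono-culture. Mono-cultured macrophages had 15.64 to 18.03 and co-cultured macrophages 13.25 to 19.82, ranges that overlapped each other and the co-cultured cancer cells. By mean signal the populations ranked as co-cultured cancer cells (18.60 ± 1.14, SD, n = 5), co-cultured macrophages (17.49 ± 2.61), mono-cultured macrophages (16.93 ± 0.95) and mono-cultured cancer cells (10.93 ± 2.11), and of neighbours in that order only the last pair was separated by more than the spread. The co-culture and mono-culture levels did not overlap in cancer cells for any of the 4 CXCL8 probes, against 1.57% of the probes tested with the co-culture higher and 1.11% with it lower. Such levels were read on separate arrays, so they are given without a test.

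Set against the mean of mono-cultured macrophages, the CXCL8 signal of co-cultured cancer cells by the brightest probe was 82.2% in CMT-W1, 331% in CMT-U309, 398% in CMT-U27, 469% in P114 and 629% in CMT-W2. By the other 3 probes it was 28.0% to 487%. In each line this was above the share of macrophage marker signal in the same cells given earlier. Both shares are of mono-cultured macrophages, whereas co-cultured macrophages had 7.78% (CMT-W1) to 741% (P114) by the brightest CXCL8 probe. The part of carried-over macrophage RNA in the cancer cells' CXCL8 was not tested. Compared with the macrophages sorted from the same co-culture, the cancer cells had a higher CXCL8 signal with CMT-U27 (by 0.60 log2 units), CMT-W1 (3.40) and CMT-W2 (2.70), and a lower one with CMT-U309 (by -0.52) and P114 (-0.66), with the same signs by all 4 probes. When grown alone, the cancer cells were below the macrophages in all 5 pairs, by -10.31 to -2.89.

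**Figure D2:**
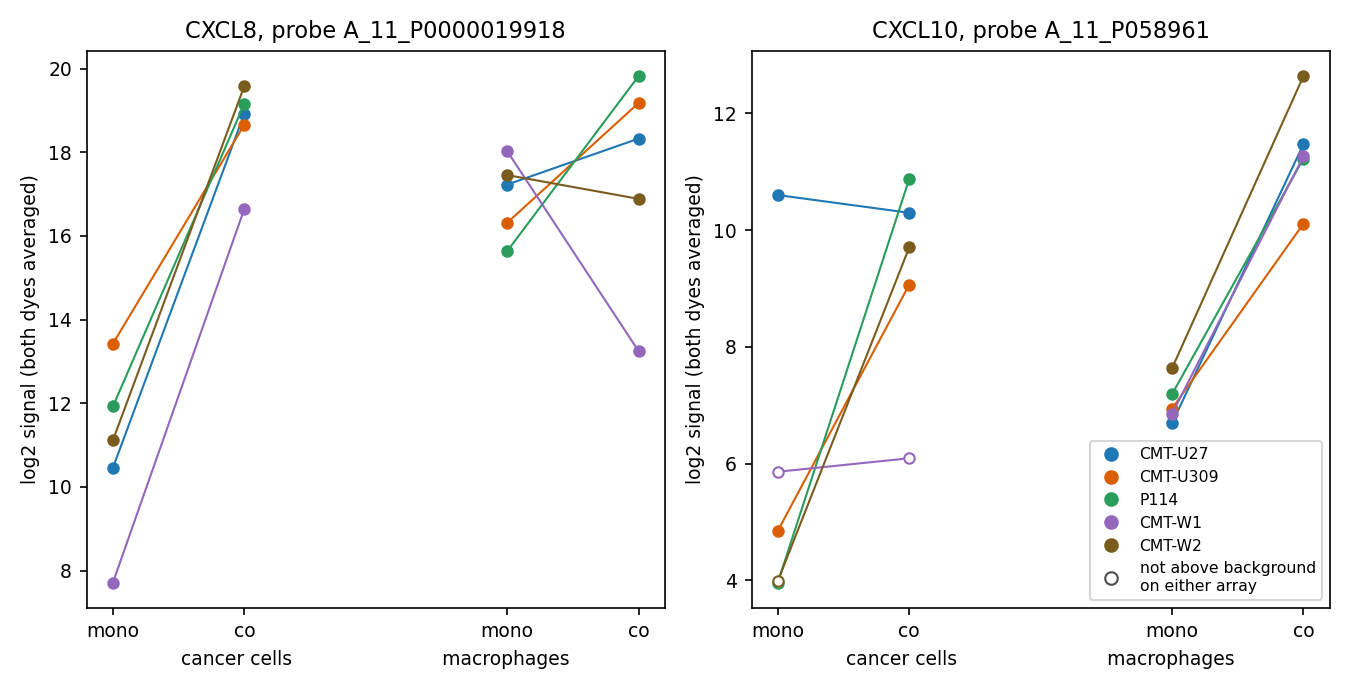
Log2 signal averaged over both dyes (vertical axis) of the brightest CXCL8 and CXCL10 probe in mono-culture and co-culture of cancer cells and macrophages (horizontal axis), with a line joining the cultures of each tumour line. All 5 cancer cell lines climb for CXCL8 and all 5 macrophage populations for CXCL10, whereas macrophage CXCL8 and cancer cell CXCL10 differ by line, and open circles are not well above background on either array.

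**Figure D3:**
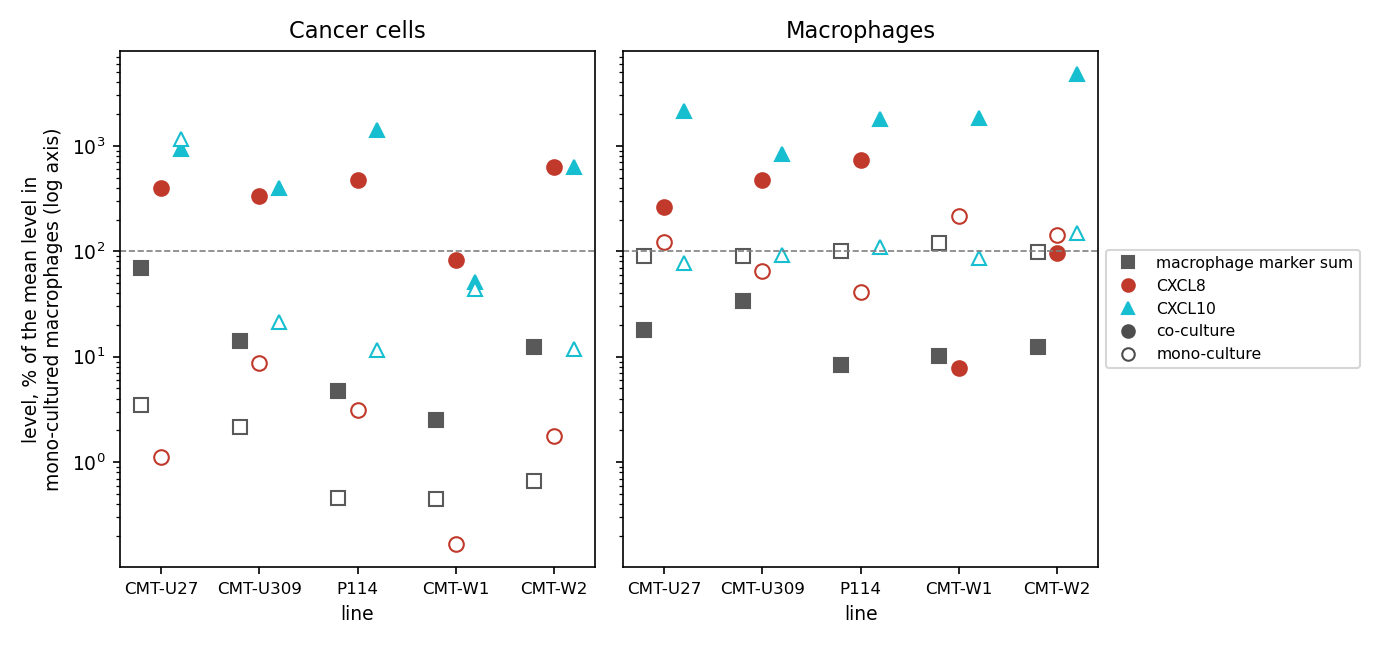
Level in each population as a percent of the mean level in mono-cultured macrophages (vertical log axis) by tumour line (horizontal axis), for the summed macrophage markers and the brightest probe of CXCL8 and CXCL10, filled in co-culture and open in mono-culture. In co-cultured cancer cells the marker sum ranges from 2.49% to 69.5% and CXCL8 from 82.2% to 629%.

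For CXCL10 it was the macrophages whose change was similar across the co-cultures. The log2 ratio of A_11_P058961 in macrophages was 4.78 with CMT-U27, 3.17 with CMT-U309, 4.04 with P114, 4.41 with CMT-W1 and 5.00 with CMT-W2. A_11_P0000020166 gave 4.72, 3.06, 4.28, 4.63 and 4.95. Both probes were raised in 5 of 5 co-cultures, least with CMT-U309 and most with CMT-W2. The means were 4.28 ± 0.72 (SD, n = 5, 19.4-fold) and 4.33 ± 0.75 (20.1-fold), and the limma adjusted p was 7.75e-05 for A_11_P058961 and 7.79e-05 for A_11_P0000020166, where 21.9% of 30092 probes tested in macrophages were called up and 25.8% down. The log2 signal of A_11_P058961 was 6.69 to 7.63 in mono-cultured and 10.11 to 12.64 in co-cultured macrophages, which did not overlap, as for 14.6% of the probes tested, while 20.5% had a co-culture wholly below the mono-culture. Without CMT-U27 the means were 4.15 and 4.23 and both probes passed (adjusted p = 0.000376 and 0.000389). With normexp background correction the means were 2.35 to 2.68 after loess and 2.41 to 2.75 after median centring. The size of the rise thus depended on the processing. In mono-cultured macrophages A_11_P0000020166 was well above background on 8 of 10 arrays.

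In cancer cells CXCL10 varied between the lines. By A_11_P058961 the log2 ratio was -0.30 in CMT-U27, 4.22 in CMT-U309, 6.91 in P114 and 5.72 in CMT-W2, and by A_11_P0000020166 it was -0.27, 4.15, 6.01 and 5.05. CMT-W1 was not well above background in either culture by either probe and was left out of the fit. The means over the remaining 4 lines were 4.13 ± 3.16 (SD, n = 4, limma adjusted p = 0.0541) and 3.74 ± 2.78 (adjusted p = 0.0514), so neither probe passed. CMT-U27 stood apart because of its mono-culture, whose log2 signal of 10.60 was above the 3.96 to 5.86 of the other lines and close to its own co-culture (10.30). In P114 and CMT-W2 the mono-culture was not well above background on either array, so the difference there was at least 37.1-fold and 12.8-fold by A_11_P058961 and at least 32.0-fold and 10.2-fold by A_11_P0000020166.

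The call on CXCL10 in cancer cells turned on CMT-U27 and on the dye, among other settings. Without CMT-U27 the means were 5.61 and 5.07 over 3 lines and both probes passed (adjusted p = 0.00994 and 0.00686). On the arrays with the co-culture in Cy3 alone the means were 4.68 and 4.69 and both passed (adjusted p = 0.0413 and 0.0416), and in Cy5 alone they were 3.58 and 2.78 and neither did (adjusted p = 0.0789 and 0.0752). With normexp background correction and loess, where neither passed, the means were 1.50 and 1.24 (adjusted p = 0.124 and 0.121). The arrays of a dye-swap pair differed by up to 3.16 for CXCL10 in cancer cells, against at most 1.20 in macrophages.

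The change in CXCL10 did not pass a test of the difference between cell types. It was 0.15 (macrophages minus cancer cells, 95% interval -2.43 to 2.72, limma adjusted p = 0.938) by A_11_P058961 and 0.59 (-1.71 to 2.90, adjusted p = 0.697) by A_11_P0000020166, intervals that hold sizeable differences in either direction. The sign turned without CMT-U27 (-1.46 and -0.84). In level, co-cultured cancer cells were below the macrophages of the same co-culture by A_11_P058961 in the 4 lines in which they were measured, with differences of -1.18 in CMT-U27, -1.04 in CMT-U309, -0.35 in P114 and -2.93 in CMT-W2. In CMT-W1 the cancer cells were not well above background on either array. The part of carried-over macrophage RNA in the cancer cells' CXCL10 was not tested.

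The 2 chemokines were then compared within each population, as the log2 ratio of CXCL8 minus that of CXCL10 by their brightest probes. In cancer cells the difference was 8.77 in CMT-U27, 1.02 in CMT-U309, 0.32 in P114 and 2.75 in CMT-W2, all positive as measured. In P114 and CMT-W2, however, the CXCL10 mono-culture was not well above background, so that its ratio has only a lower bound there and the difference only an upper bound, of 2.02 in P114 and 4.79 in CMT-W2. Only CMT-U27 and CMT-U309 are free of such a bound by these probes. The CXCL10 mono-culture of CMT-U309 was also dim, with a log2 signal of 4.85, below the 5.86 of CMT-W1, which was not well above background. By A_11_P0000020166 it was well above background on 1 of 2 arrays. In CMT-U309 the sign turned with the probe, as CXCL8 had 4.10 by A_11_P053416 and CXCL10 had 4.22 and 4.15. The arrays of that pair also differed by 2.03 for CXCL10 by A_11_P058961. The sign is therefore known in CMT-U27 only. By the other pairs of probes the measured difference was positive in 2 to 4 of the 4 lines. The mean of the measured values was 3.22 ± 3.84 (SD, n = 4, exact two-sided sign-flip test p = 0.125, the smallest p that 4 values allow), and it takes in P114 and CMT-W2 as measured. In macrophages it was -3.68 with CMT-U27, -0.31 with CMT-U309, 0.15 with P114, -9.19 with CMT-W1 and -5.57 with CMT-W2, so the CXCL10 value was higher in 4 of 5, with P114 close to 0. By each of the other pairs of probes it was higher in 5 of 5 (exact sign-flip p = 0.0625, the smallest that 5 values allow). The mean was -3.72 ± 3.87 (SD, n = 5, exact sign-flip p = 0.125, against a smallest possible 0.0625). In macrophages the differences with P114 and CMT-U309 were the smallest in size by these probes, and that with CMT-W1 was the largest.

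The gap between the genes differed between the cell types by -6.94 (macrophages minus cancer cells, exact two-sided permutation test, p = 0.0317, n = 4 and 5), a value that takes the P114 and CMT-W2 cancer cells as measured although their CXCL10 ratio is a bound. Adjusted over the 3 tests of this kind it did not pass (adjusted p = 0.0952 from the exact permutation p-values), and without CMT-U27 it was -5.09 (exact permutation p = 0.143). Paired by co-culture the mean difference was -5.57 ± 5.83 (SD, n = 4), negative in 4 of 4 co-cultures, with an exact sign-flip p of 0.125. Over the 8 pairings of a CXCL8 with a CXCL10 probe, the cancer cell difference had means of 1.26 to 3.61 and the macrophage difference -5.10 to -3.72.

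**Figure D4:**
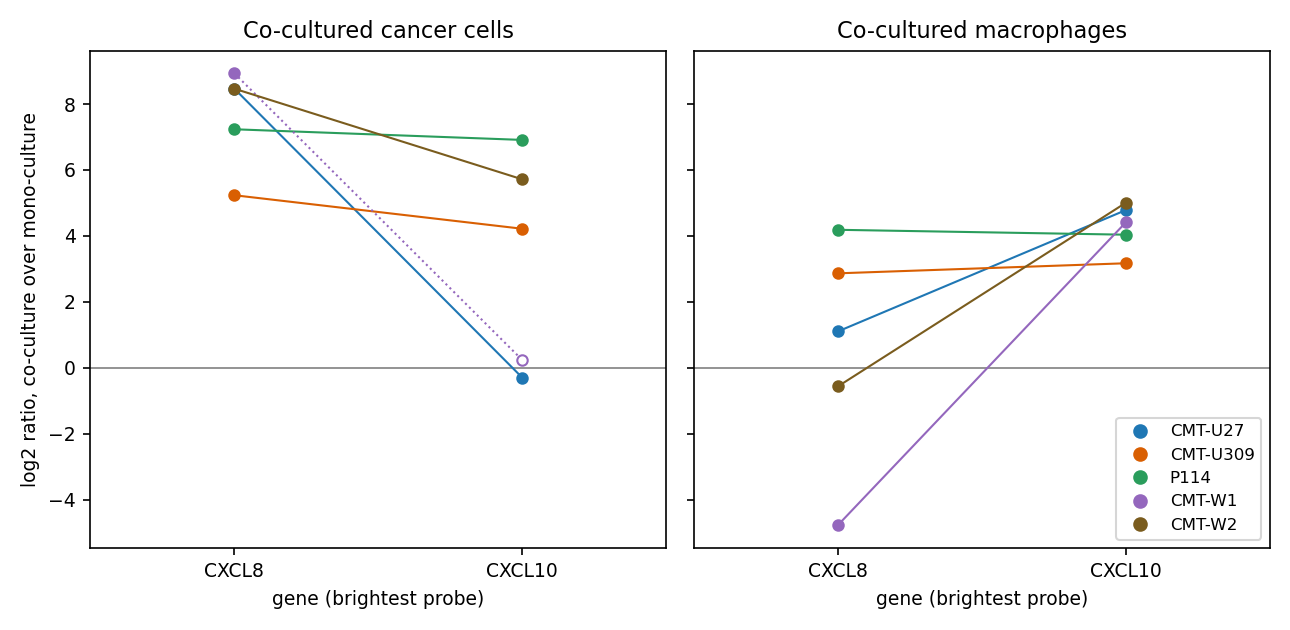
Log2 ratio (co-culture to mono-culture, vertical axis) of CXCL8 and CXCL10 by their brightest probes (horizontal axis), joined for each co-culture, in cancer cells and macrophages. In cancer cells the lines fall from CXCL8 to CXCL10, steeply in CMT-U27 and in CMT-W1 (dotted, CXCL10 below background), and in macrophages they climb with CMT-U27, CMT-W1 and CMT-W2 and stay nearly level with CMT-U309 and P114.

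Of the other CXC chemokine ligands, 1 of 14 named genes was matched, CXCL12, and it was well above background in too few populations to be tested. Of 8 receptors named, 3 were matched and tested in both cell types. CXCR2, the receptor of CXCL8 on neutrophils, had log2 ratios of -0.38 ± 0.63 (SD, n = 5, limma adjusted p = 0.376) in cancer cells and 0.28 ± 0.84 (adjusted p = 0.515) in macrophages. CXCR3, the receptor of CXCL10, had 0.52 ± 0.86 in cancer cells (adjusted p = 0.324) and fell by 1.96 ± 0.59 in macrophages (adjusted p = 0.00104). ACKR3, an atypical receptor that takes up CXCL12, rose by 3.50 ± 1.29 in cancer cells (adjusted p = 0.00775) and fell by 3.08 ± 2.45 in macrophages (adjusted p = 0.0143), in the direction of the macrophage markers. Without CMT-U27 the calls on all 3 receptors were the same.

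Of 16 tested NF-kB target cytokines and enzymes, 10 rose and 0 fell in cancer cells, where 6.79% of all probes were called up, with a median log2 ratio of 4.02 against -0.03 over all probes tested. PTGS2, the inducible cyclooxygenase, rose by 7.17 ± 2.21 (SD, n = 5, limma adjusted p = 0.00301), the cytokine IL1B by 5.86 ± 1.82 (n = 4), IL1A by 5.25 ± 1.65 and the chemokine CCL3 by 5.23 ± 0.71. In macrophages 4 of the 16 rose (25.0%, close to the 21.9% of all probes) and 1 fell, with a median of 0.60 against -0.12. By the test of the difference, 7 of the 16 were higher in cancer cells (43.8%, against 16% of all probes) and 0 were higher in macrophages (7 and 0 of 15 without CMT-U27). PTGS2 had -0.63 ± 3.13 in macrophages (adjusted p = 0.633), IL1B -2.04 ± 2.35 (adjusted p = 0.0584), CCL3 1.29 ± 2.00 (adjusted p = 0.141), and IL1A fell by 1.89 ± 1.70 (adjusted p = 0.0265). The 4 that rose, named after their values were seen, were the cytokines IL6 (5.17 ± 0.69, n = 4), CSF2 (4.31 ± 1.39) and LIF (0.95 ± 0.82) and the chemokine CCL20 (3.47 ± 2.05). Without CMT-U27, 9 of 16 rose in cancer cells, and 3 of 15 rose and 2 fell in macrophages, where LIF no longer passed and IL1B also fell (by 2.56, adjusted p = 0.0373). The macrophage markers moved in the same directions as IL1A. In cancer cells 11 of 12 rose, beside 6.79% of all probes. In macrophages 11 of 12 fell, beside 25.8% of all probes. The markers' part in the values of the NF-kB targets was not tested.

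Of 8 tested genes that signal to NF-kB and AP-1, 4 rose and 0 fell in cancer cells, where 6.79% of all probes were called up. The pattern receptors TLR2 and TLR4 rose by 5.25 ± 0.71 (SD, n = 4) and 3.55 ± 0.62 (n = 5), the receptor CD40 by 4.38 ± 1.75 and NFKB1, a subunit of NF-kB, by 1.33 ± 0.74. In macrophages 1 rose, NFKB1 (0.74 ± 0.50, limma adjusted p = 0.0444), and 4 fell, where 21.9% of all probes were called up and 25.8% down. These were TLR2 (by 3.77 ± 1.41), TLR4 (by 3.11 ± 1.20), TLR7 (by 1.79 ± 1.25) and the kinase MAPK14 (by 1.26 ± 0.93), of which NFKB1 and MAPK14 were named after their values were seen. Macrophages also express TLR2 and TLR4, and these moved with the macrophage markers in both cell types. The part of the markers' cells in these values was not tested. Without CMT-U27, 3 of the 8 rose in cancer cells and 3 fell in macrophages, and NFKB1 and MAPK14 no longer passed.

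Of 7 interferon-stimulated genes tested, 0 rose and 2 fell in macrophages (28.6% fell, close to the 25.8% of all probes), with a median log2 ratio of -0.87 against -0.12 over all probes tested, in the same cells in which both CXCL10 probes rose. PSMB8, an immunoproteasome subunit, had -1.02 ± 1.43 (SD, n = 5, limma adjusted p = 0.122), the antiviral GTPase MX1 -0.38 ± 1.40 (adjusted p = 0.549) and OAS2, an antiviral RNA sensor, -0.96 ± 1.47 (adjusted p = 0.152). OAS1 fell by 0.87 ± 0.61 (adjusted p = 0.0343) and OAS3 by 1.05 ± 0.54 (adjusted p = 0.0127). In cancer cells 4 of 7 rose and 0 fell, where 6.79% of all probes were called up, with a median of 2.65. The macrophage markers moved in the same directions, with medians of 4.14 in cancer cells and -3.41 in macrophages, and their part in these values was not tested. In cancer cells PSMB8 rose by 4.84 ± 1.42, MX1 by 4.83 ± 1.07, OAS1 by 3.39 ± 1.17 and PSMB9 by 2.40 ± 1.32 (PSMB9 and OAS3 were named after their values were seen). Without CMT-U27, 3 of 7 rose in cancer cells and 1 fell in macrophages, as PSMB9 (adjusted p = 0.0508) and, in macrophages, OAS1 (adjusted p = 0.0593) no longer passed. MX1 was raised in 5 of 5 lines, with 5.22 in CMT-U27 and 3.86 in CMT-W1, the lines in which CXCL10 had -0.30 or was below background.

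Among 5 tested interferon ligands, receptors and signalling genes was IFNB1, the interferon beta gene. Its mean log2 ratio was 3.79 ± 1.51 in cancer cells (SD, n = 4, limma adjusted p = 0.0131) and 3.56 ± 1.02 in macrophages (n = 3, adjusted p = 0.00167). It was not well above background on any mono-culture array and was so on 9 of 10 co-culture arrays of cancer cells and 6 of 10 of macrophages. A population thus counted as measured for IFNB1 only where its co-culture was well above background on both arrays. The filter therefore favoured a positive mean, so these p-values cannot show a rise, and the sizes are uncertain. Without CMT-U27 and under the same filter, IFNB1 passed in cancer cells (4.28, limma adjusted p = 0.0209). It was then measured in too few macrophage populations to be tested. Of the 5 genes, 20% (IFNB1 alone) were called up in cancer cells, where 6.79% of all probes were. In macrophages 40%, IFNB1 among them, were called up and 40% down, beside 21.9% and 25.8% of all probes. Without CMT-U27, 1 of 5 (again IFNB1) was called up in cancer cells, beside 3.82% of all probes. In macrophages 1 of 3 then rose and 2 fell, beside 18.7% and 19.6% of all probes. IFNG was not measured in enough populations to be tested. IL12A, an interleukin 12 subunit, rose by 3.79 ± 1.30 in macrophages (adjusted p = 0.000532) and had 1.48 ± 1.32 in cancer cells (adjusted p = 0.0766). IL18, a cytokine that induces interferon gamma, fell by 1.47 ± 0.62 and the interferon alpha gene IFNA7, named after its values were seen, by 1.17 ± 0.49 in macrophages, and IL12B had 0.90 ± 0.08 there (n = 3, adjusted p = 0.0521). In cancer cells IL18 had 1.49 ± 1.32 (limma adjusted p = 0.0764), IFNA7 -0.80 ± 0.71 (adjusted p = 0.115) and IL12B 2.32 ± 2.14 (n = 4, adjusted p = 0.0917).

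**Figure D5:**
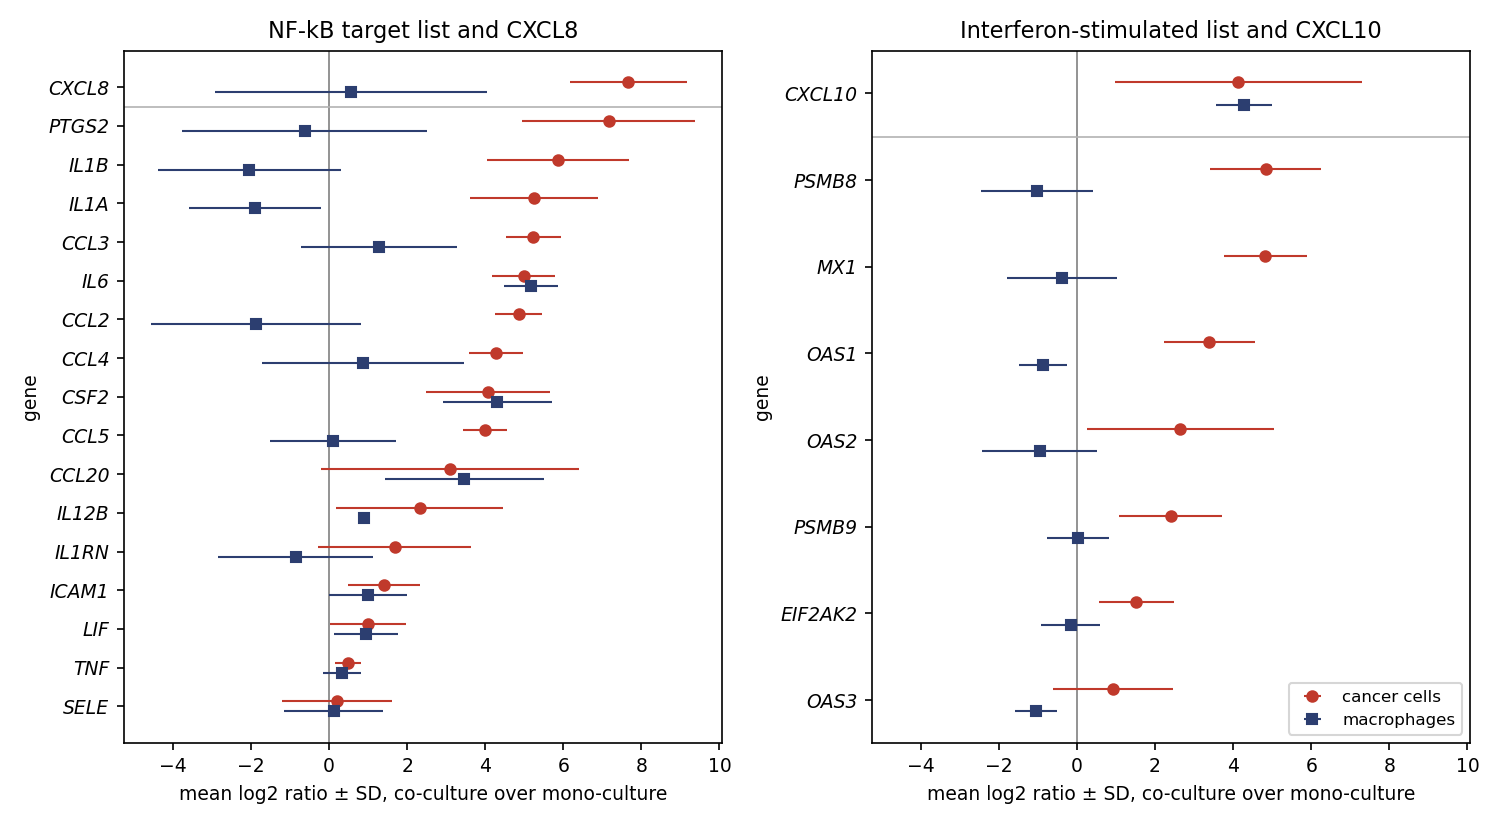
Mean log2 ratio with its SD over the co-cultures (horizontal axis) of the tested NF-kB target genes beside CXCL8 and of the interferon-stimulated genes beside CXCL10 (vertical axis, each gene by its brightest probe), in cancer cells (circles) and macrophages (squares). PTGS2 lies near CXCL8 in both cell types, while the macrophage value of CXCL10 (4.28) lies apart from those of the interferon-stimulated genes (-1.05 to 0.02).

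Over the 10 populations the gene whose log2 ratio was most like that of CXCL8 was PTGS2, with a Pearson r of 0.98 among 572 genes with a symbol. The populations fall into a cancer cell and a macrophage cluster, and within them r was 0.89 and 1.00 (n = 5 each). In macrophages PTGS2 had -0.53 with CMT-U27, 1.28 with CMT-U309, 2.93 with P114, -5.35 with CMT-W1 and -1.46 with CMT-W2, the order of CXCL8. The next genes were IL18BP (r = 0.95), MMP9 (0.95), LOC477518 (0.94) and CCL3 (0.94). For CXCL10, over the 9 populations in which it was measured, the closest were CCDC66 (0.83), BCL2 (0.75), BMPR1B (0.74), TUBG1 (0.74) and BHLHE41 (0.70). Within macrophages (n = 5) r was 0.26 for CCDC66, 0.86 for BCL2, -0.05 for BMPR1B, 0.04 for TUBG1 and 0.35 for BHLHE41, so of these genes BCL2 alone kept a high r there, and CCDC66 had mean ratios of only -0.35 in cancer cells and -0.12 in macrophages. These correlations share arrays and mono-cultures and are a description.

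Markers of the cells that CXCL8 and CXCL10 draw were also read. Of 4 neutrophil markers tested, S100A8, a calcium-binding protein also made by monocytes, rose by 3.46 ± 0.73 in cancer cells (SD, n = 5, limma adjusted p = 0.00164) and fell by 4.58 ± 2.14 in macrophages (adjusted p = 0.00152), and the granule genes ELANE and CAMP had 0.82 and 0.22 in cancer cells (adjusted p = 0.118 and 0.527). The summed neutrophil marker signal of the co-cultured populations was 1.45% to 23.8% of that of mono-cultured macrophages, and its part in the CXCL8 values was not tested. ELANE rose by 1.01 ± 0.52 (SD, n = 4) in macrophages (limma adjusted p = 0.0270). Of the 4 neutrophil markers, 25% rose in cancer cells, where 6.79% of all probes were called up. In macrophages 25% rose and 25% fell, close to the 21.9% and 25.8% of all probes. Of 5 lymphocyte markers tested in cancer cells 1 rose (20%, beside 6.79% of all probes), the T cell costimulator CD28 (3.30 ± 1.15, n = 3). Of 6 in macrophages the B cell marker MS4A1 rose (2.52 ± 2.78) and the T cell co-receptors CD4 and CD8A fell (by 1.26 ± 0.96 and 0.64 ± 0.31). All 4 lymphocyte markers were named after their values were seen. In macrophages 16.7% of these markers rose and 33.3% fell, beside 21.9% and 25.8% of all probes. Without CMT-U27 the neutrophil counts were the same, 0 of 4 lymphocyte markers passed in cancer cells, where CD28 could not be tested, and CD8A no longer passed in macrophages.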

How the data were processed

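Two-colour Agilent canine arrays of 10 sorted populations, each hybridised on 2 arrays with the dyes exchanged, were analysed. Per the labels, the authors scanned the arrays and processed them with Agilent Feature Extraction 10.7.3.1, and the deposited files hold intensity values (background-subtracted, dye-normalised signals) and a log10 ratio of red over green. The deposited value table equals that log10 ratio turned to co-culture over mono-culture, which settled the direction. Here the ratios were turned to log2 of co-culture over mono-culture, spots marked as outliers were left out, and both arrays of a population were averaged. A probe counted as measured where it was well above background in either culture on both arrays, and was tested where this held in at least 3 of 5 co-cultures. Unmeasured co-cultures entered no fit, so CXCL10 rested on 4 lines in cancer cells. limma 3.58.1 (R 4.3.3) tested each probe against 0 and the difference between cell types, with Benjamini-Hochberg adjustment over all probes tested and a threshold of 0.05. The number of arrays limits the precision. Gene differences were tested by exact sign-flip and permutation tests. Levels are log2 processed signals after Aquantile normalization in limma, averaged over both dyes, and other genes are given by their brightest probe. Symbols came from RefSeq accessions, which named 1648 of 43603 probes. The steps were tested on simulated data.

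Genes named were all probes of both chemokines, every tested CXC ligand and receptor, and the 5 genes most correlated with each chemokine. Of the other lists, the 4 genes with the largest absolute mean ratio in either cell type were named. This was not done for 2 marker lists. Of the macrophage markers CD163 alone is given by name, and the epithelial markers are given as sums and counts only. The members and lists were chosen with earlier results of these data known. The cancer cells and macrophages of a line came from the same co-culture, and their deviations from the cell type means correlated over all probes with r of 0.02 to 0.46, so the co-culture as a block was an alternative. Further alternatives were the background correction and normalization, the deposited value table, spot and probe filters, each dye alone, a dye term, the slide, a shared fit, the methods' t-test and each co-culture left out.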

Additional observations from a re-analysis of the deposited data

Results flagged for a closer look

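Of 36 sets of 4 or 5 values tested for a value far from the rest, 2 held such a value, where chance gives about 1 in 20 sets. Both were CXCL10 in mono-cultured cancer cells, where the log2 signal of CMT-U27 was 10.60 by A_11_P058961 (the next line had 5.86) and 10.30 by A_11_P0000020166 (the next line had 5.25). The next line was CMT-W1 by both probes, which, like P114 and CMT-W2, was not well above background in mono-culture, so the gap was taken against background signal.

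CXCL8 passed a limma fit of macrophages against cancer cells. The difference in its log2 ratio was -7.11 by A_11_P0000019918, -6.11 by A_11_P054906, -5.97 by A_11_P053416 and -7.38 by A_11_P053586. The gap between the genes, the log2 ratio of CXCL8 minus that of CXCL10, differed by -6.94 in an exact permutation test (p = 0.0317, and 0.0952 adjusted over 3 tests), with the P114 and CMT-W2 cancer cells entered as measured although their CXCL10 ratio is a bound.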

How the results depend on the processing

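Of 326 values of single probes recomputed under the alternatives, 298 kept their sign and their side of the threshold. CXCL10 in macrophages passed under every alternative run, with means of 2.68 to 4.56 by A_11_P058961 and 2.35 to 4.65 by A_11_P0000020166. CXCL8 in cancer cells passed under every alternative but the methods' t-test, which called 0 of the 6 probes. That t-test gave 1247 probes at an unadjusted p under 0.01 in cancer cells, of which few passed after adjustment (8 in all). With each gene by its brightest probe, 1 of 2 passed in cancer cells, in macrophages and in the difference. CXCL10 in cancer cells also passed with the co-culture in Cy3 alone, with a dye term over 10 arrays (their pairs as a random block), with the slide as a random block, in a shared fit and without CMT-U27. With the slide as a fixed block, an alternative chosen after seeing the data, 0 of 6 probes passed the difference, against 4, and 507 of all probes against 9089. With the co-culture as a replicate block the CXCL8 differences passed (limma adjusted p of 0.0089 to 0.0141) and no call of a single probe changed, those on CXCL10 included.

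The mean CXCL8 ratio in macrophages turned with median centring (-0.076 by the brightest probe), without CMT-U309 or P114 by the brightest probe and without CMT-W1 by the other 3. Over the co-cultures left out it ran from -0.35 to 1.89, -1.48 to 0.70, -1.44 to 0.80 and -1.77 to 0.55 by the 4 probes. The CXCL10 difference turned in Cy3 alone (-0.43 and -0.28) and without CMT-U27, and ran from -1.46 to 1.13 and -0.84 to 1.36 over co-cultures left out. The gap of -6.94 was -6.07 in Cy3 alone (p = 0.0635), -5.99 with A_11_P053416 and A_11_P058961 (p = 0.0556), -5.57 with the co-culture as a replicate block (exact sign-flip p = 0.125) and -8.87 to -5.09 over co-cultures left out (p of 0.0286 to 0.143, under 0.05 only without CMT-W1), the others by exact permutation. The cause was not tested. The list counts without CMT-U27, added after seeing the data, are given beside each list. Over all probes, 3.82% were then called up and 2.31% down in cancer cells, and 18.7% up and 19.6% down in macrophages. By the difference 11.7% were then higher in macrophages and 10.6% higher in cancer cells.

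Probes called in cancer cells numbered 4035 (50.0% up), and 78 (83.3% up) with normexp and loess, 3162 (90.4% up) with median centring, 2514 without a filter, 2264 in Cy5 alone, 9772 with the slide as a random block and 1215 to 3260 over lines left out. In macrophages they numbered 14353, and 7800 with median centring. In the difference they numbered 9089 (49.6% higher in macrophages), 4741 (23.4%) with median centring and 5998 to 8188 over co-cultures left out. Low CXCL10 signal in mono-cultured cancer cells limits the size of its ratios.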
